A study of Mus musculus with 37 samples.

Results

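The Slc25 genes encode the mitochondrial carriers, the transport proteins that move metabolites, nucleotides and cofactors across the inner mitochondrial membrane. All symbols formed from Slc25a and a number that appeared in each of 4 expression tables of mouse neurons were taken, with Slc25a22 set aside, which gave 46 genes of the 24411 in each table. The rule reads names and no measured value.

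Most carriers are built from repeats of a membrane-spanning unit and exchange one solute for another, so that they tie the supply of fuel in the cytosol to oxidation and ATP synthesis in the matrix. In neurons the ADP/ATP and phosphate carriers serve oxidative phosphorylation, while the aspartate/glutamate carrier and the oxoglutarate carrier form the membrane steps of the malate-aspartate shuttle, which brings the reducing power of cytosolic NADH into the matrix. Other members carry citrate, amino acids, S-adenosylmethionine, coenzyme A, NAD, glutathione, pyrimidine nucleotides or iron. Tet2, the gene manipulated in the study, encodes a dioxygenase that oxidises methylated cytosine in DNA.

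Polyadenylated RNA was sequenced in 37 libraries that formed 4 experiments. Hippocampal neuronal nuclei came from C57/Bl6 mice carrying Tet2fl/fl, either without a Cre (labelled WT, n = 4) or with CamKIIaCreERT2, a Cre that is active only in cells using the CamKIIa promoter (labelled cKO, n = 3). The labels gave no age and no tamoxifen schedule for these mice. In the first knockdown, primary neuron cultures of embryonic day 17 were infected with lentivirus against luciferase (shLuciferase, n = 6) or with one whose label read shTet2 (n = 6). In the second knockdown, in vitro primary neurons were labelled shLuc (n = 6) or Tet2 KD (n = 6). Its column names carried the mark 3d, and those of the first knockdown did not. The overexpression experiment compared cultured primary neurons labelled synGFP (n = 3) and Tet2 OE (n = 3). No label said that the culture libraries came from separate cultures, so p-values measure the spread between libraries, which may be technical. Values are normalized counts, that is, reads per gene divided by a size factor of the library. Each table was normalized separately, so levels are compared within a table only.

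Libraries held 2709421 to 73220675 reads, of which the 46 carriers took 11740 to 202368 reads per library. Depth did not overlap between the groups of the overexpression experiment, with 16988077 to 48321564 reads in synGFP and 66684922 to 73220675 in Tet2 OE. Tet2 itself averaged 986 ± 73.9 normalized counts in WT nuclei and 639 ± 201 in cKO nuclei (SD, exact two-sided permutation p = 0.0286, the smallest that 35 splits allow). It averaged 459 ± 74.7 in shLuc and 175 ± 87.6 in Tet2 KD cultures (exact permutation p = 0.00216, the smallest the design allows), and 1724 ± 773 in synGFP and 3823 ± 1538 in Tet2 OE cultures (exact permutation p = 0.1, the smallest the design allows). In the first knockdown Tet2 averaged 461 ± 189.9 in shLuciferase and 504 ± 149 in the libraries labelled shTet2 (exact permutation p = 0.667), so the targeted gene was not lower there and these libraries are named by their label throughout. The 9 neuronal markers examined were read in every library of every group except for 1 marker missing from a Tet2 OE library. All 8 astrocyte markers were also read in every library, nuclei included. In the second knockdown the summed normalized count of the neuronal markers was 51197 to 56768 in shLuc and 42321 to 48768 in Tet2 KD. That of 8 vascular and meningeal markers was 174 to 283 and 76.2 to 152, both without overlap. By the limma test described below, 3 of the 9 neuronal markers were called higher there and 2 lower (median log2 fold change -0.11). Of 7 vascular and meningeal markers tested, 0 were called higher and 3 lower. The shares over all genes were 12.6% higher and 13.2% lower. In the first knockdown the vascular sum was 381 to 703 in shLuciferase and 125 to 257 in the libraries labelled shTet2, also apart. The part of these markers in the carriers' values was not tested.

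The family was dominated by a few carriers. Per kilobase of exon, the scale used here to compare genes, Slc25a4, the ADP/ATP carrier of heart, muscle and brain, led in shLuc cultures with 7363 ± 544 normalized counts per kb (SD, n = 6). It was followed by the second ADP/ATP carrier Slc25a5 with 4079.8 ± 533, the phosphate carrier Slc25a3 with 2680.3 ± 291 and the oxoglutarate carrier Slc25a11 with 2102 ± 174. The citrate carrier Slc25a1, with 1452 ± 111, and Slc25a39, which imports glutathione, with 1028 ± 83.4, came next. These 6 genes made up 83.0% of the summed level per kb of the family in shLuc, against 78.4% for the same 6 in shLuciferase. The exon length joins all annotated exons of a gene, 5.55 kb for Slc25a3 and 1.646 kb for Slc25a5. The order and shares per kb depend on that annotation. In WT nuclei the levels per kb of the first 2 lay closer together, 1249.6 ± 354 for Slc25a4 and 1192 ± 157 for Slc25a5, a gap smaller than their SDs. In synGFP cultures Slc25a5, at 2786 ± 1517 per kb, and the branched-chain amino acid carrier Slc25a44, at 2224 ± 1436, both averaged above Slc25a4, at 2002 ± 200.4, with spreads between libraries that covered the gaps. At the other end, 9 of the 46 genes averaged under 10 normalized counts in shLuc, and Slc25a41 and Slc25a54 were at 0 in all 12 libraries of the second knockdown. The carriers together took 0.584% of reads in shLuc and 0.600% in Tet2 KD, 0.450% in shLuciferase and 0.400% in the libraries labelled shTet2, 0.271% in WT and 0.299% in cKO nuclei, and 0.0945% in synGFP and 0.0812% in Tet2 OE.

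**Figure D1:**
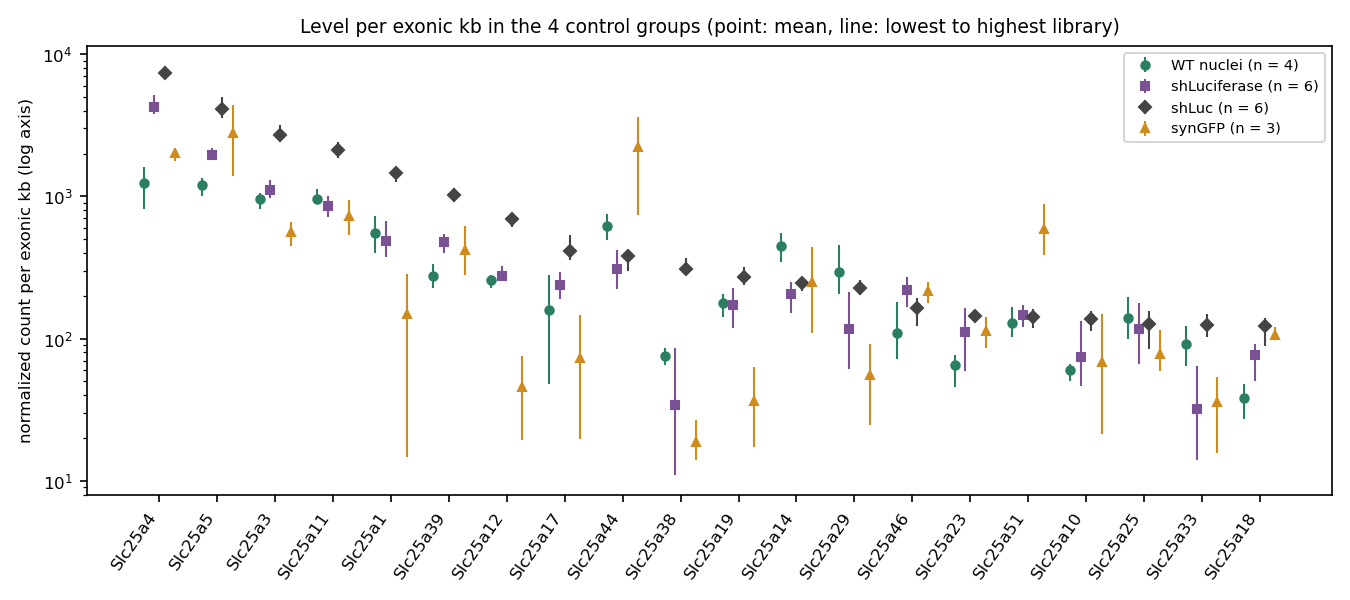
Normalized count per exonic kb (log axis) of the 20 Slc25 genes with the highest level in shLuc cultures, in the 4 control groups; points are means and lines run from the lowest to the highest library. Slc25a4 stands at the top in 3 of the 4 groups, and Slc25a44 and Slc25a51 stand much higher in synGFP cultures than their place in the shLuc order; each group comes from a table normalized separately.

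Carriers were tested within each whole table by limma on log2(normalized count + 1), over genes with a mean of at least 0.5, and called at an adjusted p under 0.05. In the nuclei 0 of the 42 carriers tested were called higher and 0 lower, and the share called among all genes was 0.0% in both directions. By limma 4 of the 42 carriers had an unadjusted p under 0.05, beside 6.97% of all genes. On the recovered reads edgeR and DESeq2 also called 0 carriers, beside 1 and 78 of all 18780 genes. Among the libraries labelled shTet2, 1 of 42 carriers rose against 0.655% of all genes, and 1 fell against 1.28% of all genes. The second knockdown moved 12 of 44, of which 8 rose and 4 fell, where 12.6% of all genes rose and 13.2% fell, 25.9% in all. With overexpression 3 of 46 rose against 6.19% of all genes, and 2 fell against 3.77%, so that 5 of 46 were called beside 9.96% of all genes. In the first knockdown the share of all genes called in either direction was 1.93%. The carriers' share of calls was thus near that of all genes in the second knockdown (27.3%) and with overexpression (10.9%), and was 4.76%, or 2 genes, in the first knockdown. The median log2 fold change of the carriers was 0.20 in the nuclei (all genes -0.09), -0.16 in the first knockdown (all genes 0.09), 0.11 in the second (all genes -0.02) and -0.78 with overexpression (all genes -0.75).

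**Figure D2:**
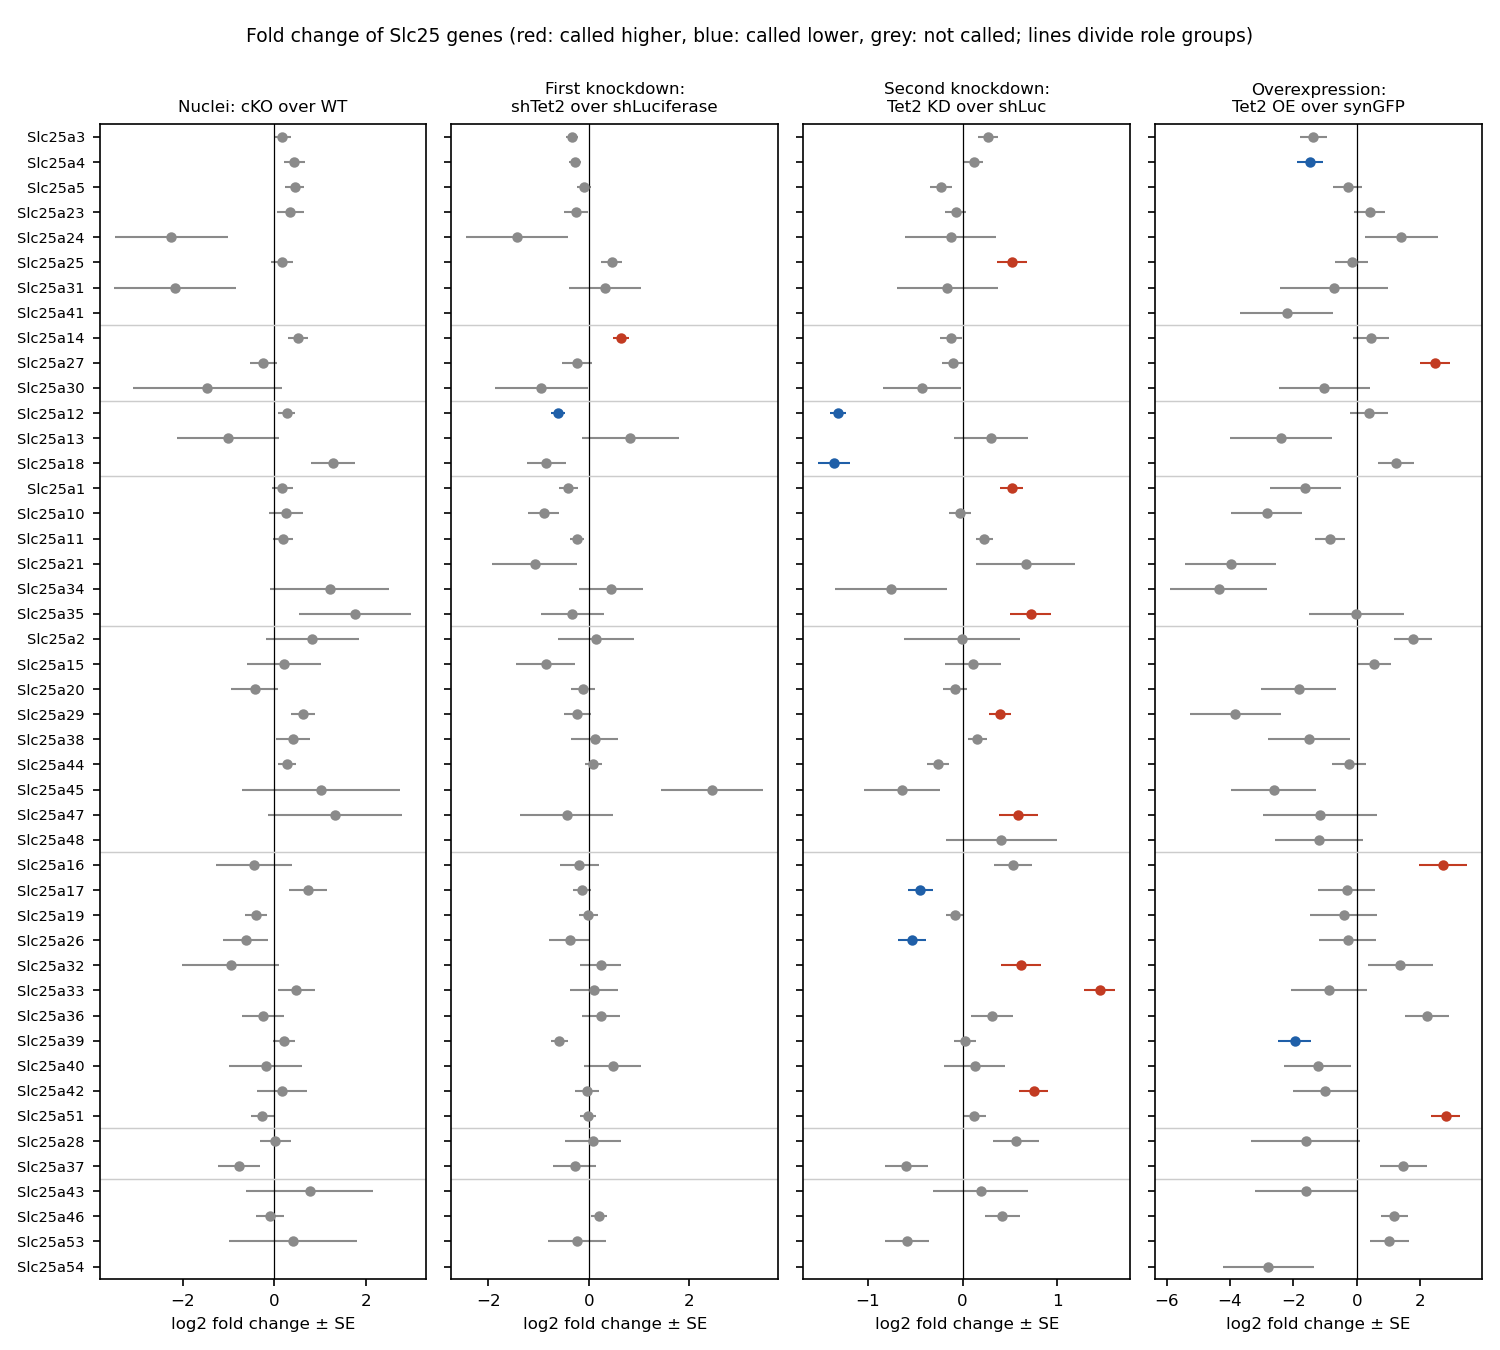
Log2 fold change of treated over control with its SE (x axis, a range of its own in each panel) for each tested Slc25 gene (rows, grouped by role) in the 4 experiments; red points were called higher, blue lower and grey not called. Calls are 0 in the nuclei, 2 in the first knockdown, 12 in the second and 5 with overexpression, and the intervals are widest with overexpression.

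The aspartate and glutamate carriers held the largest falls called among the 46 carriers in the knockdowns. Slc25a12, the calcium-stimulated aspartate/glutamate carrier of brain and muscle known as aralar, fell in both knockdowns. Among the 42 carriers tested in both, it alone was called in both. Over all genes 1.93% were called in the first and 25.9% in the second, and the share called in both was not counted. In the second knockdown the normalized counts of Slc25a12 ran from 4477 to 5525 (median 5170.0) in shLuc and from 1876 to 2203 (median 2072) in Tet2 KD. The groups stood far apart, the lowest control lying above the highest knockdown library by more than the highest knockdown value itself. It fell by 1.32 ± 0.09 (log2, SE) with an adjusted p of 2.8e-09, to 0.4 times the control level. The first knockdown had counts of 1869 to 2390.0 (median 1979) in shLuciferase and of 1165 to 1846 (median 1246) in the libraries labelled shTet2, 5 of which lay at or below 1300 while the library labelled shTet2 3 lay just under the lowest control. The groups did not overlap, and Slc25a12 fell by 0.62 ± 0.14 with an adjusted p of 0.0175. The gene lies at chr2:71271063-71367749 on the minus strand (mm10, GENCODE annotation). Its span, introns counted, overlaps a processed pseudogene, Gm13641, on the opposite strand over 473 bases.

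Slc25a12 was not called outside the knockdowns. In the nuclei it read 2457, 2148 and 2266 in cKO and 1652, 2052, 1999 and 1917 in WT, the cKO libraries lying above without overlap (log2 fold change 0.27 ± 0.19, adjusted p 0.813). With overexpression the counts were 549, 143 and 321 in synGFP and 434, 394 and 332 in Tet2 OE, and the controls spread wider than the gap between the groups (log2 fold change 0.39 ± 0.61, adjusted p 0.689). Slc25a13, or citrin, the liver counterpart of Slc25a12, was barely read, with 3.16 to 24.2 (median 13.6) in shLuc and 9.15 to 24 (median 14.2) in Tet2 KD. A difference was not detectable at such counts in the first knockdown, 3.04 to 14.5 against 0 to 67.2, or in the nuclei, 0 to 7.08 in WT against 0 to 1.07 in cKO. With overexpression it spanned 4.36 to 45 in synGFP and 0 to 6.44 in Tet2 OE, which overlap.

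Slc25a18, the glutamate carrier known in brain from astrocytes, was called in the second knockdown. Its counts ran from 169 to 267 (median 245) in shLuc and from 66.4 to 114 (median 90.5) in Tet2 KD. Every knockdown library lay under every control, and Slc25a18 fell by 1.36 ± 0.17 with an adjusted p of 6.7e-06. The 8 astrocyte markers moved in the same libraries. Their summed normalized count was 11471 to 13333 in shLuc and 8354 to 10430 in Tet2 KD, without overlap. Of the 8, 3 fell (beside 13.2% of all genes) and 0 rose (beside 12.6%). The part of these markers in the fall of Slc25a18 was not tested. In bulk libraries fewer cells of a type and less RNA per cell cannot be told apart. Slc25a18 ran in the first knockdown from 96.7 to 176 (median 155) in shLuciferase and from 44.8 to 155 (median 82.1) in the libraries labelled shTet2, with overlap and no call (log2 fold change -0.84 ± 0.38, adjusted p 0.322). The difference between its fold changes in the 2 knockdowns was -0.52 ± 0.40 (adjusted p 0.539), so a difference was not shown. In the nuclei the order was the other way, 92.3, 79.3, 52.2 and 69.7 in WT and 181, 173 and 177 in cKO, and all cKO libraries lay above all WT libraries. This was the smallest p of a carrier in the nuclei, and it did not pass (log2 fold change 1.29 ± 0.48, adjusted p 0.662). The astrocyte sum there was 6281 to 11074 in WT and 5552 to 9266 in cKO, with overlap. With overexpression Slc25a18 read 191, 189.9 and 229 in synGFP and 570.3, 633 and 306 in Tet2 OE, again without overlap and again short of a call (log2 fold change 1.24 ± 0.57, adjusted p 0.169).

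Slc25a22, the other mitochondrial glutamate carrier, belongs to the family but is in none of the counts of carriers given here, which therefore leave out a gene that fell in all 3 culture experiments. It averaged 3418 ± 312 normalized counts in shLuc and 417 ± 41.6 in Tet2 KD (log2 fold change -3.03 ± 0.10, adjusted p 6.1e-14). Slc25a22 fell by 2.59 ± 0.16 in the libraries labelled shTet2 (adjusted p 3.1e-09) and by 3.02 ± 0.58 with overexpression (adjusted p 0.00278).

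Of the 8 adenine nucleotide and phosphate carriers, 1 of 7 tested rose in the second knockdown (beside 12.6% of all genes) and 0 were called in the first. With overexpression 1 of 8 fell (beside 3.77% of all genes). The ADP/ATP carrier Slc25a4 counted 15870.3 to 19429 (median 17068) in shLuc and 15417 to 20388 (median 19576) in Tet2 KD, with broad overlap (log2 fold change 0.11 ± 0.10, adjusted p 0.441). In the first knockdown it counted 8988 to 12073 (median 9514) in shLuciferase and 7214 to 9223 (median 8149) in the libraries labelled shTet2 (log2 fold change -0.28 ± 0.11, adjusted p 0.271), and in the nuclei 3812, 3376, 2655 and 1918 in WT against 4147, 3317 and 4158 in cKO (log2 fold change 0.44 ± 0.22, adjusted p 0.733). With overexpression Slc25a4 went from 5122, 4195 and 4813 in synGFP to 1472, 1585 and 2103 in Tet2 OE. The groups stood apart, and Slc25a4 fell by 1.47 ± 0.41 with an adjusted p of 0.0311. That call did not pass with TMM factors (adjusted p 0.0668), with edgeR (0.0786), or without synGFP 5, Tet2 OE 3, Tet2 OE 4 or Tet2 OE 6 (0.0755 to 0.119).

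Slc25a5, the ADP/ATP carrier of dividing and many other cells, was called in no experiment. Its counts ran from 5877 to 8160.2 (median 6352) in shLuc and from 4602 to 7126 (median 5719.8) in Tet2 KD (log2 fold change -0.23 ± 0.11, adjusted p 0.153). They ran from 2975 to 3618 (median 3104) in shLuciferase and from 2221 to 4129 (median 2908) in the libraries labelled shTet2 (adjusted p 0.775), and from 1656 to 2218 in WT and 2218 to 3259 in cKO nuclei (adjusted p 0.711). With overexpression the 3 synGFP libraries themselves spread over 2295, 4212 and 7249, wider than the Tet2 OE libraries at 3898, 3056 and 3239.9. With library totals in place of size factors Slc25a5 was called lower there (log2 fold change -0.99, adjusted p 0.0403). Slc25a4 and Slc25a5 are 77.5% identical over 897 aligned coding bases of GRCm38 transcripts, and how reads matching both were shared between them was not stated. Their longest identical coding run has 20 bases, and that of Slc25a12 and Slc25a13 has 21. A coding read longer than such a run meets a difference between the paired genes. The runs are shown with all bases identical (capitals):
Slc25a4 and Slc25a5: CAGTTCTGGCGCTACTTTGC
Slc25a12 and Slc25a13: TTCTTTGGACTGTACCGAGGT

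The phosphate carrier Slc25a3, which brings phosphate into the matrix for ATP synthesis, leaned in opposite directions in the knockdowns. In the first it counted 5406 to 7177 (median 6020.3) in shLuciferase and 4482 to 5236 (median 4933) in the libraries labelled shTet2, all lower than the controls, without a call (log2 fold change -0.33 ± 0.11, adjusted p 0.151). In the second it counted 13301 to 17753 (median 14407) in shLuc and 16283 to 21690.2 (median 17173) in Tet2 KD, higher with overlap, and was not called either (log2 fold change 0.27 ± 0.11, adjusted p 0.0676). The difference between these fold changes was itself called (second minus first 0.60 ± 0.14, adjusted p 0.0208). In the nuclei it read 5707, 5886, 5147 and 4545 in WT and 6523, 4955 and 6597 in cKO (adjusted p 0.852). With overexpression it read 3644, 3183 and 2504 in synGFP and 878, 1450.4 and 1307 in Tet2 OE, with every Tet2 OE library below and an adjusted p of 0.0506. Slc25a25, an ATP-Mg/phosphate carrier that sets the matrix pool of adenine nucleotides, rose in the second knockdown from 659 to 1223 (median 987) in shLuc to 899 to 1856 (median 1483) in Tet2 KD. The groups overlapped, since the lowest Tet2 KD library lay under the shLuc median. The rise was 0.52 ± 0.16 with an adjusted p of 0.0215, which became 0.0507 without shLuc 8, 0.0512 without Tet2 KD 4 and 0.0533 without Tet2 KD 10. The span of Slc25a25, introns counted, overlaps Naif1 on the opposite strand over 989 bases. The strand setting of the counting was not stated, so the value of Slc25a25 is uncertain.

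Of the 3 carriers related to the uncoupling proteins, 1 rose in the first knockdown, Slc25a14 (beside 0.655% of all genes). With overexpression 1 rose, Slc25a27 (beside 6.19%). Slc25a14, known as brain mitochondrial carrier protein or UCP5, rose in the first knockdown, from 359.9 to 594 (median 485) in shLuciferase to 669 to 824 (median 762) in the libraries labelled shTet2. All of the latter lay above all controls, and the rise was 0.64 ± 0.17 with an adjusted p of 0.0464. This call lay close to the threshold. It did not pass with TMM factors (0.0591), upper-quartile factors (0.0512) or edgeR (0.0741), nor without any single library other than shLuciferase 1 (0.0514 to 0.12). Slc25a14 counted, in the second knockdown, 513 to 618 (median 597) in shLuc and 440.4 to 684 (median 528) in Tet2 KD, which overlap (log2 fold change -0.13 ± 0.12, adjusted p 0.469). In the nuclei all cKO libraries, at 1606, 1383 and 1465, lay above the WT libraries, at 1085, 1312, 987 and 816, which was the second smallest p of a carrier there and was not called (log2 fold change 0.52 ± 0.21, adjusted p 0.693). With overexpression it counted 258, 477 and 1047 and 697, 495 and 949.7 (adjusted p 0.617). Slc25a27, the neuronal UCP4, rose with overexpression instead, from 238, 322 and 305 in synGFP to 1417, 1647 and 1718 in Tet2 OE. The 6 libraries formed 2 tight, separate groups. The rise was 2.47 ± 0.47 with an adjusted p of 0.0026, and it was called under each of the 16 alternative settings run. Slc25a30, a kidney-enriched member, was called in none of the experiments.

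Among the di- and tricarboxylate carriers 2 of 6 rose in the second knockdown (beside 12.6% of all genes) and 0 were called in the other experiments. Slc25a1, which exports citrate for lipid synthesis and protein acetylation, counted 2729 to 3453 (median 3175) in shLuc and 3346 to 6154 (median 4491) in Tet2 KD. Only the lowest Tet2 KD library fell within the control range, and the rise was 0.52 ± 0.12 with an adjusted p of 0.00453. It counted, in the first knockdown, 816 to 1447 (median 935) in shLuciferase and 566 to 966 (median 813) in the libraries labelled shTet2, with overlap (log2 fold change -0.40 ± 0.18, adjusted p 0.323). In WT and cKO nuclei it read 1169, 1133, 867 and 1577 against 1149.8, 1555 and 1261 (adjusted p 0.853). With overexpression the synGFP libraries themselves lay far apart, 619.5, 311 and 31.6 against 16.5, 226 and 53.1 in Tet2 OE (adjusted p 0.35).

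Slc25a11, the oxoglutarate/malate partner of Slc25a12 in the shuttle, was not called in any experiment. In the second knockdown it counted 3956 to 5079 (median 4456) in shLuc and 4561 to 5732 (median 5228) in Tet2 KD (log2 fold change 0.23 ± 0.09, adjusted p 0.0709), and in the first 1526 to 2130.2 (median 1854) against 1112 to 1750.3 (median 1677) (adjusted p 0.472). It read 1883, 1912, 2005 and 2389 in WT and 3124, 1703 and 2392 in cKO nuclei (adjusted p 0.852), and 1987, 1507 and 1126 in synGFP and 1189, 976 and 501 in Tet2 OE (adjusted p 0.257). Groups overlapped in all 4. Slc25a35, a carrier without a settled substrate, rose in the second knockdown from 21.7 to 41.9 (median 24) in shLuc to 40.9 to 48.3 (median 42.7) in Tet2 KD, by 0.72 ± 0.21 with an adjusted p of 0.018. Apart from shLuc 2, all controls lay below all Tet2 KD libraries. The span of Slc25a35, introns counted, overlaps Rangrf on the opposite strand over 1882 bases, so its low count is uncertain.

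The enzymes of the malate-aspartate shuttle were counted beside the carriers. Of the 4 genes listed, 0 rose in the 3 culture experiments. In each 1 fell, beside 1.28% of all genes in the first knockdown, 13.2% in the second and 3.77% with overexpression. It was Got1, the cytosolic aspartate aminotransferase, in both knockdowns: 2875 to 3333 (median 3116) in shLuc against 1479.8 to 2073 (median 1852) in Tet2 KD (a fall of 0.80 ± 0.09, adjusted p 4.3e-06), and 2053 to 2562 (median 2133) in shLuciferase against 1021 to 1439.7 (median 1230.0) in the libraries labelled shTet2 (a fall of 0.88 ± 0.13, adjusted p 5.5e-04). Groups did not overlap in either. With overexpression it was Mdh2, the mitochondrial malate dehydrogenase, which fell from 2589 to 3748 to 687 to 1149 (a fall of 1.74 ± 0.43, adjusted p 0.0171), a call that did not pass without synGFP 5, Tet2 OE 3 or Tet2 OE 4 (0.0602 to 0.0936).

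Of the 9 amino acid and carnitine carriers, 2 rose in the second knockdown (beside 12.6% of all genes) and 0 were called elsewhere. Slc25a29, a carrier of basic amino acids, counted 531 to 677 (median 577) in shLuc and 627 to 1001 (median 809) in Tet2 KD. Of the 6 Tet2 KD libraries 4 lay above all controls, and the rise was 0.39 ± 0.12 with an adjusted p of 0.019. Slc25a47, best known from liver, counted 49 to 89.5 (median 59.3) in shLuc and 67.9 to 125 (median 95.3) in Tet2 KD, with overlap, and rose by 0.59 ± 0.21 with an adjusted p of 0.0401. That call did not pass with no filter (0.0526), with library totals (0.0617), or without shLuc 2, 3, 7 or 9 or Tet2 KD 6, 11 or 12 (0.0527 to 0.0948).

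The nucleotide and cofactor carriers held the largest rises. In the second knockdown 3 of 11 rose (beside 12.6% of all genes) and 2 fell (beside 13.2%). Slc25a33, a carrier of pyrimidine nucleotides for mitochondrial RNA and DNA synthesis, went from 194 to 282 (median 238) in shLuc to 423 to 874 (median 683) in Tet2 KD. The groups were well apart, although the Tet2 KD libraries spread over more than the whole control range. The gene span of Slc25a33, introns counted, overlaps the antisense gene Gm13068 over 1090 bases. The count of Slc25a33 is uncertain where strand was not used, and how much of the overlap is exon was not measured. Slc25a33 rose by 1.45 ± 0.16 with an adjusted p of 2.5e-06, 2.73 times the control level. It moved little in the first knockdown, with 26.6 to 121 (median 51.1) in shLuciferase and 43.8 to 70.8 (median 59.3) in the libraries labelled shTet2 (log2 fold change 0.11 ± 0.48, adjusted p 0.936). The difference between its fold changes, 1.34 ± 0.38 (95% interval 0.56 to 2.12), had an adjusted p of 0.0647 and was not called.

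Slc25a42, which carries coenzyme A, rose without overlap from 83.2 to 129 (median 113) in shLuc to 147 to 226 (median 179) in Tet2 KD, by 0.75 ± 0.15 with an adjusted p of 0.00101. Slc25a32, the carrier of folate and FAD, counted 35.2 to 60.0 (median 48.8) in shLuc and 50.6 to 100.2 (median 74.3) in Tet2 KD. These ranges overlapped, and the rise of 0.62 ± 0.21 had an adjusted p of 0.0356, which did not pass without shLuc 1, 2 or 9 or Tet2 KD 4, 10, 11 or 12 (0.0554 to 0.0892). Slc25a26, the carrier of S-adenosylmethionine, the methyl donor, fell from 123 to 159 (median 133) in shLuc to 79.8 to 112 (median 93.3) in Tet2 KD. No libraries overlapped, and the fall was 0.53 ± 0.15 with an adjusted p of 0.0104. The span of Slc25a26, introns counted, overlaps Lrig1 on the opposite strand over 144 bases, which leaves its count uncertain. Slc25a17, a carrier of the peroxisome and not of mitochondria, counted 1019.8 to 1519 (median 1168) in shLuc and 651 to 1059.6 (median 885) in Tet2 KD, with overlap, and fell by 0.45 ± 0.13 with an adjusted p of 0.0166.

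**Figure D3:**
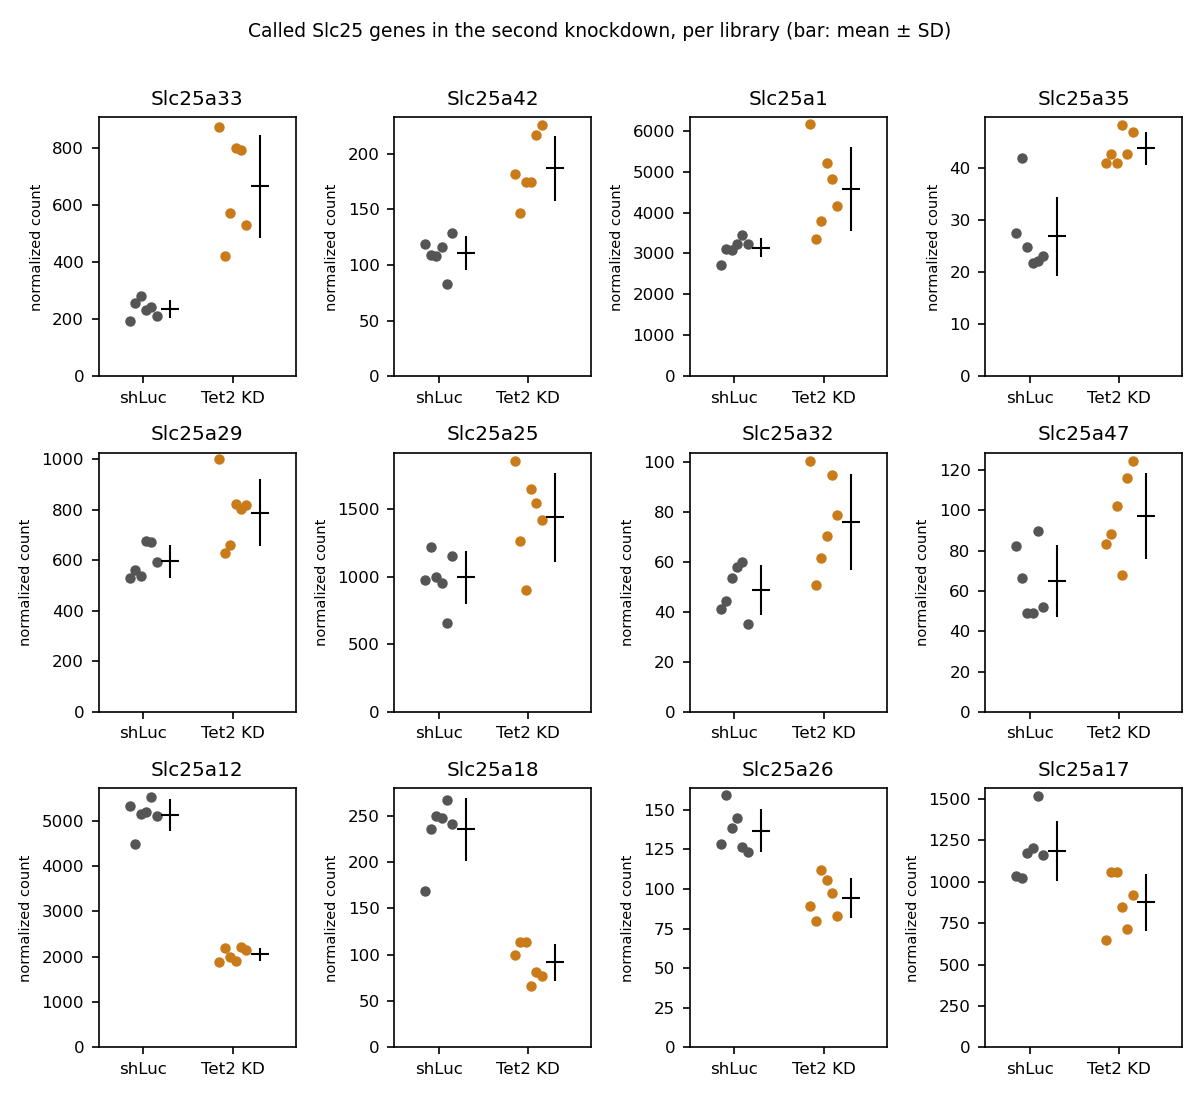
Normalized count per library (points) with mean ± SD (black) of the 12 Slc25 genes called in the second knockdown, shLuc (n = 6) against Tet2 KD (n = 6), each y axis starting at 0; the 8 that rose come first, then the 4 that fell. Slc25a33 and Slc25a42 among the rises and Slc25a12, Slc25a18 and Slc25a26 among the falls show no overlap between the groups.

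With overexpression 2 of the 11 nucleotide and cofactor carriers rose (beside 6.19% of all genes) and 1 fell (beside 3.77%), which made 3 of the 5 calls. Slc25a51, the mitochondrial importer of NAD, counted 2122, 2821 and 4843 in synGFP and 30784, 15929 and 20495 in Tet2 OE. Every Tet2 OE library was above the highest control by a factor of more than 3, and the rise was 2.81 ± 0.46 with an adjusted p of 6.3e-04. It became the highest carrier per kb in Tet2 OE, at 4066 ± 1381 (SD, n = 3), from 592 ± 257 in synGFP. Slc25a16, a carrier linked to coenzyme A, counted 25.2, 121 and 60.0 in synGFP and 357, 417 and 380.4 in Tet2 OE, a rise of 2.73 ± 0.76 with an adjusted p of 0.0295. Its span, introns counted, overlaps a processed pseudogene on the same strand, Gm16128, over 626 bases, which leaves its count uncertain. The groups stood apart, but the call did not pass with library totals (0.116) or without synGFP 4, synGFP 5, Tet2 OE 3, Tet2 OE 4 or Tet2 OE 6 (0.056 to 0.101).

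Slc25a39, the glutathione carrier, counted 1708, 976 and 771 in synGFP and 289, 352 and 217 in Tet2 OE and fell by 1.95 ± 0.52 with an adjusted p of 0.024. All Tet2 OE libraries lay below the controls, and the call did not pass without synGFP 4, synGFP 5, Tet2 OE 3, Tet2 OE 4 or Tet2 OE 6 (0.0518 to 0.102). Slc25a39 was not called in the other experiments. It counted, in the second knockdown, 2519 to 3153 (median 2783) in shLuc and 2106 to 3466 (median 3053) in Tet2 KD (adjusted p 0.898). In the first it counted 1099 to 1504 (median 1279.9) in shLuciferase and 667 to 1309 (median 865) in the libraries labelled shTet2 (log2 fold change -0.58 ± 0.17, adjusted p 0.0804), and in the nuclei 628, 882, 622 and 927 in WT against 716, 819.7 and 1114 in cKO (adjusted p 0.852), with overlap in each.

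**Figure D4:**
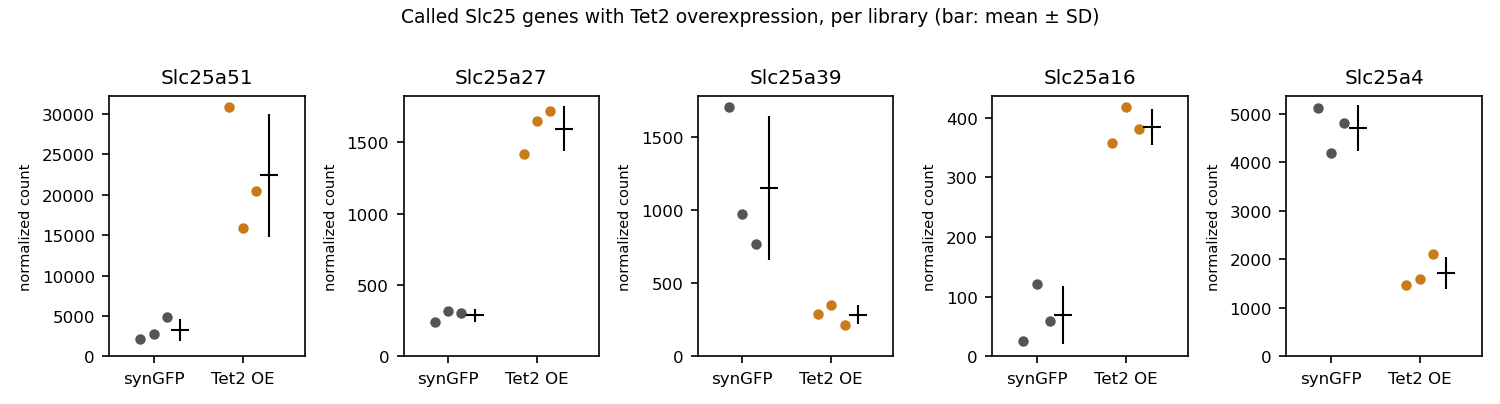
Normalized count per library (points) with mean ± SD (black) of the 5 Slc25 genes called with Tet2 overexpression, synGFP (n = 3) against Tet2 OE (n = 3), each y axis starting at 0. In all 5 genes the groups do not overlap, and the spread of the controls relative to their mean is widest for Slc25a16.

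The overexpression values have to be read against a shift of the whole table. The median log2 fold change of all 22399 genes was -0.75, and -0.58 with TMM factors, -0.82 with upper-quartile factors and -1.31 with library totals. The split of all called genes moved with the scaling, from 1386 higher and 844 lower to 862 higher and 1808 lower with library totals. Relative to that median, Slc25a51 stood at 3.56, Slc25a16 at 3.48, Slc25a27 at 3.22, Slc25a4 at -0.72 and Slc25a39 at -1.20 on the log2 scale. Without that subtraction, the log2 fold changes over the 3 other scalings ran from 2.10 to 3.01 for Slc25a51, 2.03 to 2.92 for Slc25a16, 1.76 to 2.67 for Slc25a27, -2.17 to -1.27 for Slc25a4 and -2.66 to -1.75 for Slc25a39, so that the sign of each was the same under these scalings. Libraries of the groups did not overlap for 7 carriers that were higher in Tet2 OE, beside 12.5% of all genes, and for 10 that were lower, beside 19.0%. Markers and measures of the libraries moved with the groups as well. Rn45s took 0.0607% to 0.411% of reads in synGFP and 0.00452% to 0.00662% in Tet2 OE. The number of genes with a read was 18540 to 21194 in synGFP and 16457 to 18371 in Tet2 OE. Both measures were without overlap. The summed normalized count of 8 microglia markers was 85.1 to 248 in synGFP and 31.9 to 75.6 in Tet2 OE, also without overlap, with 1 marker called lower and 3 of the defining ones (Cx3cr1, P2ry12 and Tmem119) at 0 in all Tet2 OE libraries. Of the 8 oligodendrocyte markers 1 was called higher and 2 lower, with sums of 2509 to 8908 in synGFP and 1747 to 2549 in Tet2 OE, which overlap. Of the 8 astrocyte markers 2 were called higher in Tet2 OE. The summed normalized count of all 8 was 63687 to 213594 in synGFP and 186380 to 227070 in Tet2 OE, with overlap. Neuronal markers had 2 of 9 called higher and 0 lower, with overlapping sums of 52866 to 99345 in synGFP and 68517 to 78499 in Tet2 OE. Vascular and meningeal markers had 0 of 8 called in either direction. Over all genes 6.19% were called higher and 3.77% lower. The part of these markers and measures in the carriers' values was not tested.

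In the nuclei the groups did not overlap for 3 carriers that were higher in cKO (Slc25a12, Slc25a14 and Slc25a18, beside 3.55% of all genes) and for 0 that were lower (beside 3.41%). Such carriers came to 1 higher (beside 0.863%) and 2 lower (beside 1.39%) in the first knockdown, and to 2 higher (beside 5.7%) and 4 lower (beside 6.53%) in the second. The lower ones of the second were the falls of Slc25a12, Slc25a18 and Slc25a26 and, short of a call, Slc25a37, a mitoferrin that imports iron, named after its values were seen (32.2 to 41.9 (median 35.6) in shLuc, 18.1 to 31.1 (median 24.4) in Tet2 KD, adjusted p 0.0631). Neither of the 2 mitoferrins, and none of the tested carriers of the outer membrane and of unknown substrate (Slc25a43, Slc25a46, Slc25a53 and Slc25a54), was called in any experiment.

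Whether the knockdowns differed was tested directly in 1 limma fit of both tables. Of 42 carriers, 4 differed, beside 1.83% of all genes. The fold change of the second knockdown was the higher one for 2 (beside 0.905% of all genes) and the lower one for 2 (beside 0.924%). Slc25a12 fell further in the second knockdown (second minus first -0.70 ± 0.15, adjusted p 0.011). Slc25a1 and Slc25a3 were the 2 with the higher fold change in the second (0.92 ± 0.22 and 0.60 ± 0.14, adjusted p 0.0257 and 0.0208), and Slc25a14 was the other lower one (-0.77 ± 0.19, adjusted p 0.0284). The difference for Slc25a1 did not pass without shLuciferase 2, shLuc 1, Tet2 KD 4 or Tet2 KD 10 (0.0502 to 0.0584). That for Slc25a14 did not pass with edgeR (0.0506) or without shLuciferase 2 or 3, library 4 labelled shTet2, shLuc 3, 7 or 9, or Tet2 KD 4, 10 or 11 (0.0502 to 0.063). RNA was extracted with TRIzol in the first knockdown and with RNeasy in the second, and only columns of the second carried the mark 3d. The extraction, what that mark stands for and the experiment cannot be told apart.

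**Figure D5:**
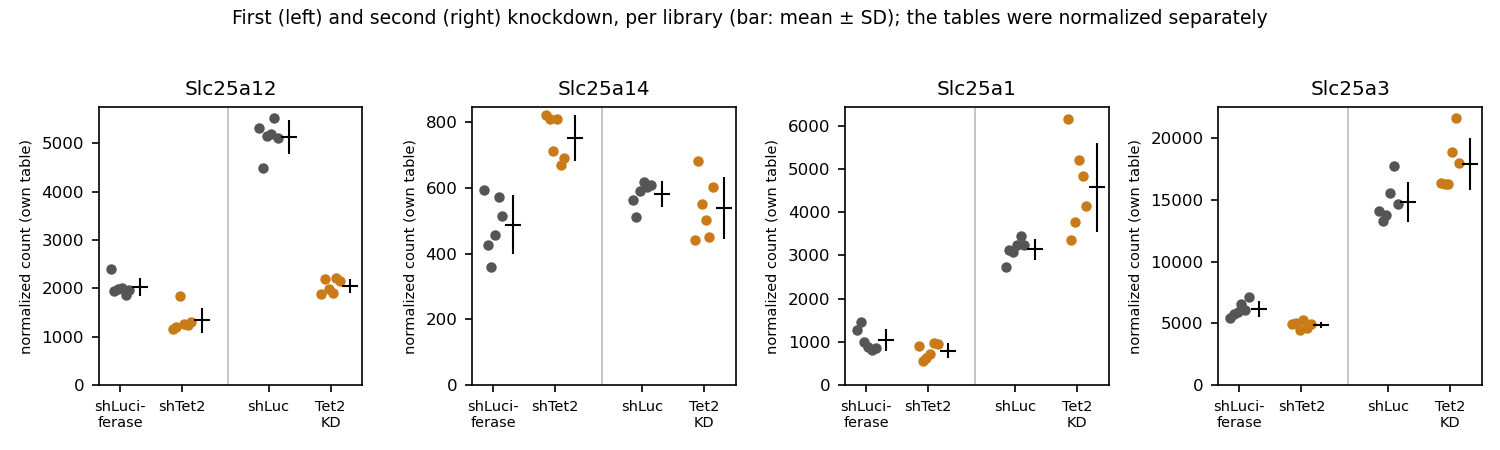
Normalized count per library (points) with mean ± SD (black) in the first knockdown (left of the line) and the second (right), for the 4 Slc25 genes whose fold change differed between them; levels left and right of the line come from separately normalized tables. Slc25a12 falls on both sides, Slc25a14 rises on the left alone, Slc25a1 rises on the right alone, and Slc25a3 leans down on the left and up on the right.

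Carriers reach the inner membrane through the TOM complex, the small TIM chaperones and the TIM22 complex. Of 18 tested genes of this import route and the outer membrane channels, 0 were called in the nuclei. In the first knockdown 1 rose (beside 0.655% of all genes) and 0 fell (beside 1.28%). In the second 3 rose (beside 12.6% of all genes) and 1 fell (beside 13.2%). Tomm20, a receptor of the TOM complex, rose in both, by 0.58 ± 0.13 in the libraries labelled shTet2 (adjusted p 0.0241) and by 0.63 ± 0.09 in Tet2 KD (adjusted p 5.6e-05). The first of these did not pass without shLuciferase 3 or without libraries 2, 4 or 5 labelled shTet2 (0.0517 to 0.0745). Tomm40, its channel, rose by 0.57 ± 0.13 (adjusted p 0.00232), and Timm22, the channel that inserts carriers, fell by 0.41 ± 0.12 (adjusted p 0.0182). The porin Vdac2 rose by 0.27 ± 0.10 (adjusted p 0.0487), which did not pass with no filter (0.0558), upper-quartile factors (0.0537), library totals (0.0903) or edgeR (0.0653), nor without shLuc 1, 2, 3 or 9 or Tet2 KD 6, 10, 11 or 12 (0.0721 to 0.116). With overexpression 3 of 18 rose (beside 6.19% of all genes) and 4 fell (beside 3.77%). The small TIM chaperone gene Timm10b fell most, from 88.1 to 149.6 in synGFP to 0 to 4.29 in Tet2 OE, where 1 of the 3 libraries had a read (a fall of 6.04 ± 1.52, adjusted p 0.0177, which did not pass without synGFP 4 or synGFP 5, at 0.0641 and 0.0924). Timm10, another small TIM, fell by 1.56 ± 0.40 (adjusted p 0.0213), a call that did not pass with TMM factors, with edgeR, or without synGFP 5, Tet2 OE 3, Tet2 OE 4 or Tet2 OE 6. Agk, the lipid kinase of the TIM22 complex, rose by 3.77 ± 1.08 (adjusted p 0.035), with 3.27 to 160.0 in synGFP and 273 to 1176 in Tet2 OE, a call that did not pass with library totals or without any single library other than Tet2 OE 4 (0.0662 to 0.131). Timm13, also a small TIM, went from 119 to 357 in synGFP to 12.2 to 21.7 in Tet2 OE without overlap, a fall of 3.80 ± 0.98 with an adjusted p of 0.0207, which did not pass without synGFP 4 (0.0981) or synGFP 5 (0.14).

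A further list held pyruvate carrier subunits, uncoupling proteins, serine carriers and carrier-like outer membrane proteins that bear other symbols. Of its 7 genes tested in the second knockdown, 2 rose (beside 12.6% of all genes) and 2 fell (beside 13.2%). The serine carriers Sfxn1 and Sfxn3 rose by 0.49 ± 0.11 and 0.44 ± 0.09 (adjusted p 0.00313 and 9.1e-04). Mpc1, a subunit of the pyruvate carrier, fell by 0.45 ± 0.11 (adjusted p 0.00377), and Mtch2, a carrier-like insertase of the outer membrane, fell by 0.33 ± 0.10 (adjusted p 0.016).

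Promoter sequence was available for 35 of the 46 carriers, as the 250 bases before the annotated start in RefSeq on GRCm38.p6. Carrier promoters held a median of 14 CpG dinucleotides, against 6 over all 27025 promoters of the same length, and 24 of 35 (68.6%) held 10 or more, against 38.2%. The 6 promoters at hand of carriers that rose in the second knockdown had a median of 21, and those of Slc25a12, Slc25a17 and Slc25a18, which fell, had a median of 6. Each promoter was searched on both strands for 8 motifs. The letters CCAAT stood in 16 of 35 carrier promoters (45.7%) and in 34.5% of all promoters. They stood in 6 of the 6 promoters of carriers that rose and in 1 of 3 of those that fell. The promoter used for Slc25a47 lies within its GENCODE gene span, chr12:108836046-108856815. That span begins beside the start of Slc25a29, and which start Slc25a47 uses was not tested. CACGTG stood in 6 of 35 (17.1%, all promoters 6.04%), among them Slc25a1 and Slc25a33, and CCGGAAG in 6 of 35 (17.1%, all promoters 7.07%). The letters TGACGTCA stood in 1 of 35 (all promoters 1.60%), the shorter TGACGT within them in 3 (all promoters 6.52%), GGGGCGGGG in 3 (all promoters 10.6%), and TGATGCAA and the palindrome known for NRF1 in 0 of 35 (all promoters 0.825% and 0.777%). A match is a description of the letters and shows no binding. The CCAAT stretches are shown for the carriers that rose together and, last, for Slc25a17, which fell, 5′ to 3′ on the strand of the gene, with the motif in capitals. On GRCm38.p6 they lie at chr16:17928310-17928374, chr2:32451582-32451646, chr12:108835938-108836002, chr4:149774314-149774378 and chr8:70212496-70212531 on the minus strand, at chr12:108850979-108851043 on the plus strand and at chr15:81360892-81360956 on the minus strand, each before the annotated start.
Slc25a1: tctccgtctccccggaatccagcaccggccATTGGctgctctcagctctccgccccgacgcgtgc
Slc25a25: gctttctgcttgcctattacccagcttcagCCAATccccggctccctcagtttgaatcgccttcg
Slc25a29: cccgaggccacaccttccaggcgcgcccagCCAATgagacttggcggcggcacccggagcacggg
Slc25a33: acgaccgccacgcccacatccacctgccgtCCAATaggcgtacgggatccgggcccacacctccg
Slc25a42: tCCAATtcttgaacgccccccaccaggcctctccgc
Slc25a47: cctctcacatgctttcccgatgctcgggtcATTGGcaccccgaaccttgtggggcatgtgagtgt
Slc25a17: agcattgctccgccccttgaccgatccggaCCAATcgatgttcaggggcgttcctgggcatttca
In Slc25a1 and Slc25a47 the motif runs in reverse, as ATTGG. Of the carriers called in the second knockdown, Slc25a32, Slc25a35 and Slc25a26 were not matched to a promoter.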

How the data were processed

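Each experiment had a table of its own, with 24411 gene symbols. The submitters' processing notes name STAR, RSEM, DESeq2 and mm10, while tool versions and the strand setting are not given in the sources used here. The signal that the authors deposited is a read count divided by the size factor of the library: 100% of the values in a library were whole multiples of a common step within 0.01 reads, from which reads were recovered. The deposited baseMean signal, log2 fold change, Wald score and p-value columns were the authors' DESeq2 output, per the file headers, and were used for a comparison of calls alone.

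Values were fitted by limma 3.58.1 in R 4.3.3 on log2(value + 1), over genes with a mean of at least 0.5, all genes of a table at once, with Benjamini-Hochberg adjustment, two-sided, called at 0.05. The pseudocount shrinks the fold changes of low genes. Columns of the second knockdown and of the overexpression experiment were mapped to groups only, and their libraries bear the column number. edgeR 4.0.16 and DESeq2 1.42.0 on recovered reads were alternatives, as were scalings, filters, pseudocounts and leaving out each library. The design had named edgeR for raw counts. Scripts were tested on simulated data. Exon lengths and overlaps came from GENCODE vM21 (GRCm38), promoters from RefSeq (GRCm38.p6). Overlaps are those of whole gene spans, and their exonic part was not measured.

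Genes described were the called carriers (up to 8 per direction), the 2 smallest p where fewer than 2 were called, the 6 highest per kb in shLuc, and 5 chosen by role. Of the listed non-members, called genes were eligible, at most 4 per list and experiment. Members and lists were chosen with earlier results of these data known.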

Additional observations from a re-analysis of the deposited data

Results flagged for a closer look

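In 5 of 66 groups of 4 or more libraries a single library stood far from the rest of its group by Dixon's test, and chance gives about 1 in 20. Slc25a12 read 2390.0 in shLuciferase 1, above the other controls at 1869 to 1999, and 1846 in library 3 labelled shTet2, above the others of that label at 1165 to 1300. Leaving out either kept its fall. Slc25a17 read 1519 in shLuc 8, above the other shLuc libraries at 1020 to 1200. Slc25a18 read 169 in shLuc 1, below the others at 236 to 267, and Slc25a35 read 41.9 in shLuc 2, above the others at 21.7 to 27.5.

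Of the carriers, 4 had fold changes that differed between the knockdowns by the test of the difference itself: Slc25a1 by 0.92, Slc25a3 by 0.60, Slc25a12 by -0.70 and Slc25a14 by -0.77 (log2, second minus first).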

How the results depend on the processing

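In the nuclei 0 carriers were called under each alternative run. In the first knockdown the 1 rise became 0 with TMM factors, upper-quartile factors and edgeR, and the 1 fall became 4 with DESeq2. With overexpression the 3 rises became 6 with TMM factors, edgeR and DESeq2. The 2 falls became 1 with TMM factors and with edgeR, 4 with library totals and 5 with DESeq2. Leaving out each library in turn gave 0 to 1 rises in the first knockdown (1 only without shLuciferase 1) and 1 to 2 falls (2 without library 3 labelled shTet2). It gave 6 to 10 rises and 4 to 6 falls in the second knockdown (8 and 4 with all libraries). With overexpression it gave 2 to 5 rises (5 without synGFP 6) and 0 to 4 falls (4 without synGFP 6, 1 without synGFP 4, and 0 without any other library). Differences between the knockdowns came to 2 to 6, with 2 without shLuciferase 2, Tet2 KD 4 or Tet2 KD 10 and 4 with all libraries. Replicate numbers shared by the groups of the first knockdown did not pair the libraries: correlations of deviations were -0.14 to 0.06, 0 of 6 over 0.1, and 1 of 6 was highest with its own number. The replicate block gave 0 rises and 0 falls there, and with overexpression, where 2 column numbers are shared, 2 rises and 0 falls. Of the 5 overexpression calls, that of Slc25a27 passed with the block (adjusted p 0.0265), and those of Slc25a51 (0.0719), Slc25a16 (0.0616), Slc25a4 (0.317) and Slc25a39 (0.133) did not. Nor did those of Slc25a12 (0.0655), Slc25a14 (0.126) and Tomm20 (0.0655) in the first knockdown. No paired analysis was possible in the nuclei or in the second knockdown because the groups share no numbers.

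Of 56 single-gene results 3 turned direction, none of them called in the reported fit. Slc25a13 in the second knockdown ran from -0.022 (without shLuc 8) to 0.50 when 1 library was left out. Slc25a5 with overexpression ran from -0.71 to 0.12 (without synGFP 6) when 1 library was left out, and was called lower with library totals (-0.99, adjusted p 0.0403). Slc25a12 with overexpression was -0.32 with library totals and -0.22 with the block, and ran from -0.13 (without synGFP 5) to 0.84 when 1 library was left out. The cause was not tested. By the adjusted p in the authors' deposited table, carriers higher and lower came to 1 and 4 in the first knockdown, 12 and 5 in the second, 6 and 5 with overexpression, and 0 and 0 in the nuclei. Low counts and 3 libraries a group limit the overexpression comparison.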
